A study of Mus musculus with 20 samples.

Results

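The genes described here are 35 members of the integrated stress response and the unfolded protein response, read across 10 groups of mouse erythroid samples. Members were chosen by name, and a gene counted as measured when a probe set was annotated with its symbol and no other. Of the 35 members 33 had such a probe set, out of 19505 genes measured in all. Manf and Pdia4 had none and are not analysed here. The 19 cytosolic members comprised the eIF2 alpha kinases, the transcription factors around ATF4 and their targets, and the 14 measured of 16 reticulum members comprised the sensors and the folding and degradation factors of the endoplasmic reticulum. Ddit3 had 2 probe sets, and the one with the higher mean signal carries its values.

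RNA was measured on 20 Clariom S arrays, 2 in each group, and all samples were from C57BL/6 mice. Cultured erythroblasts made up 8 arrays: bone marrow cells of wild-type females without mature lineages, grown with erythropoietin alone (Control) or with interleukin 6 (IL6) at 100 ng/mL from the start of the culture. Their collection points are D1 and D2, whose meaning the labels leave out. The other 12 arrays held erythroblasts of 1-year-old mice. They were DKO, which lacked both mDia1 and miR-146a, or DWT, wild type for both, and were taken as proerythroblasts (stage I), basophilic and polychromatic erythroblasts (stage II+III) and orthochromatic erythroblasts (stage IV). At each stage the DWT arrays came from 1 male (replicate 1) and 1 female (replicate 2) while DKO arrays were from females only. The labels call all of these mice healthy, do not state how the stages were isolated, and do not tie the cultured or DKO arrays to single mice. The series describes cultures from 2 wild-type mice and erythroblasts from 2 DWT and 2 DKO mice.

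In the integrated stress response, kinases that sense haem shortage (Eif2ak1), reticulum stress (Eif2ak3) or amino acid shortage (Eif2ak4) phosphorylate eIF2 alpha, which slows protein synthesis in general and raises translation of ATF4. ATF4 and its partners then switch on amino acid synthesis and transport genes, and Ppp1r15a brings a phosphatase back to eIF2 alpha. In the reticulum, IRE1 (Ern1), which splices Xbp1 mRNA, and ATF6 raise the chaperones and the degradation machinery. Haemoglobin synthesis takes place in the cytosol, and maturing red cells lose their reticulum. Much of this control acts on translation, splicing or cleavage, which array signals do not show.

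All values are deposited log2 signals, on which 1 unit is a 2-fold difference, and levels of different genes are not compared. Background is the 95th percentile of an array's background probe sets. Per array, 23 to 31 of the 33 measured members exceeded it, as did 34.9% to 43% of the named probe sets. Arrays of a group correlated across probe sets at r = 0.97 to 0.994, apart from the DKO-I pair at 0.903, of which replicate 2 correlated with no array above 0.909. In the knockout check Diaph1, which encodes mDia1, lay between 9.29 and 11.49 in the DWT arrays and near background in all DKO arrays. It was lower in DKO by at least 3.44 at stage I (adjusted p = 0.00537, limma) and by at least 3.21 at stage II+III (adjusted p = 0.00933), and at stage IV, at least 1.87 lower, it did not pass (adjusted p = 0.1). The mean signal of 10 measured erythroid markers of 12 listed lay between 14.72 and 15.12 in culture. In vivo it lay between 12.92 and 13.08 in DWT-I, between 9.42 and 9.91 in DKO-I and between 15.53 and 15.80 at stage IV.

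**Figure D1:**
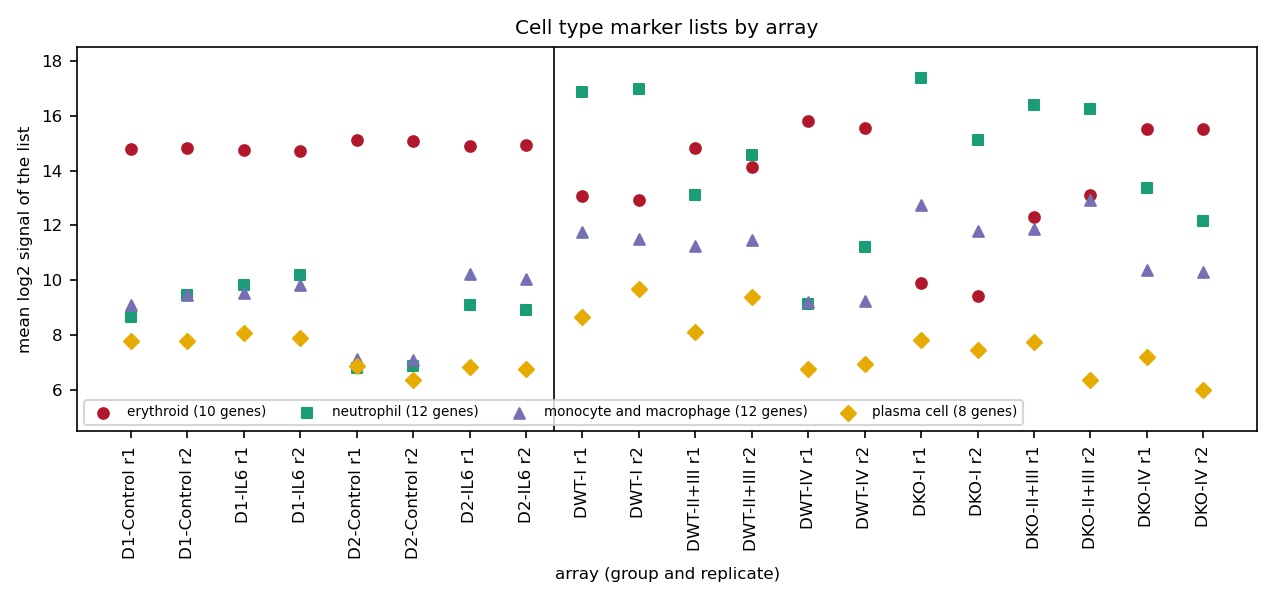
Mean log2 signal of the cell type marker lists (vertical axis) in each of the 20 arrays (horizontal axis, r1 and r2 for the replicates), one symbol per list. The neutrophil list runs from 16.87 to 16.99 in DWT-I to 9.15 to 11.2 in DWT-IV while the erythroid list is highest at stage IV, and lists are compared between arrays only, not with each other.

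Samples labelled as erythroblasts in vivo carried strong granulocyte signal. The mean of the 12 neutrophil markers was 16.87 to 16.99 in DWT-I, 13.1 to 14.55 in DWT-II+III and 9.15 to 11.2 in DWT-IV. In DKO it was 15.12 to 17.38, 16.24 to 16.37 and 12.17 to 13.37 at the same stages, with none of the 12 near background. In bulk samples, fewer cells of a type and less RNA per cell cannot be told apart.

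Promoters of the members carried the sequence marks of both arms, and a few are printed to show them. Upstream bases of each gene's start, 250 long and from RefSeq on GRCm38.p6, were searched on both strands for the reticulum stress element (CCAAT and CCACG with 9 bases between them), which ATF6 binds together with NF-Y, and for TGATGNAA, the core of the element that ATF4 binds with a C/EBP partner. The table held promoters of 33 members and 27025 genes in all, with none for Atf6 and Manf. The first motif was found in 7 of 14 reticulum members (50%), in 0 of 19 cytosolic members and in 35 of all genes (0.13%). The second was found in 6 of 19 cytosolic members (31.6%), in 1 of 14 reticulum members (7.14%, Herpud1) and in 1056 of all genes (3.91%). A further motif, TGACGTGG, was in 163 of all genes (0.603%) and in 0 members. No printed match of one motif overlaps a match of another.

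Reticulum stress elements (capitals, reverse complement where the match is on the other strand) lie in the windows of Hspa5 (chr2:34772000-34772068, plus strand), Pdia6 (chr12:17266466-17266534, plus strand), Creld2 (chr15:88819495-88819563, plus strand), Canx (chr11:50325775-50325843, minus strand) and Hsp90b1 (chr10:86705508-86705681, minus strand, 2 matches). Each is written 5′ to 3′ on the gene's strand. These genes are shown because the chaperone genes that share the element did not all move the same way below.
Hspa5: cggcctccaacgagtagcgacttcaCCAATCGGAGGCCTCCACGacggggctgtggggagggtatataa
Pdia6: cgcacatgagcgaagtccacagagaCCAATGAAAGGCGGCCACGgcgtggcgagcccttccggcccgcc
Creld2: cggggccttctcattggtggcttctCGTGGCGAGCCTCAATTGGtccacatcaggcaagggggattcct
Canx: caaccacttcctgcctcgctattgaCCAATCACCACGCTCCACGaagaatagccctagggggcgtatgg
Hsp90b1: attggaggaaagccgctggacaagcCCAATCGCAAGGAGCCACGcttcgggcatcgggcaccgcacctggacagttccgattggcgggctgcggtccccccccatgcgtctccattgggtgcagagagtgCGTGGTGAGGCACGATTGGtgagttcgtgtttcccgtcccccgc

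ATF4-type elements (capitals) lie in the windows of Slc7a11 (chr3:50443628-50443704, minus strand, 2 matches), Chac1 (chr2:119351024-119351081, plus strand), Nupr1 (chr7:126625548-126625605, minus strand) and Asns (chr6:7693210-7693257, minus strand). They are shown because Slc7a11, Chac1 and Nupr1 were among the risers in culture and Asns was not.
Slc7a11: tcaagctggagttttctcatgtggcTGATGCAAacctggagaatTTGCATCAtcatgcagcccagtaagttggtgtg
Chac1: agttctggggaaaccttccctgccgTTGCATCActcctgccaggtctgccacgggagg
Nupr1: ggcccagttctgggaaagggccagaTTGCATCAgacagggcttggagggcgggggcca
Asns: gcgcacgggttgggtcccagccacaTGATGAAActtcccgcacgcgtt

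**Figure D2:**
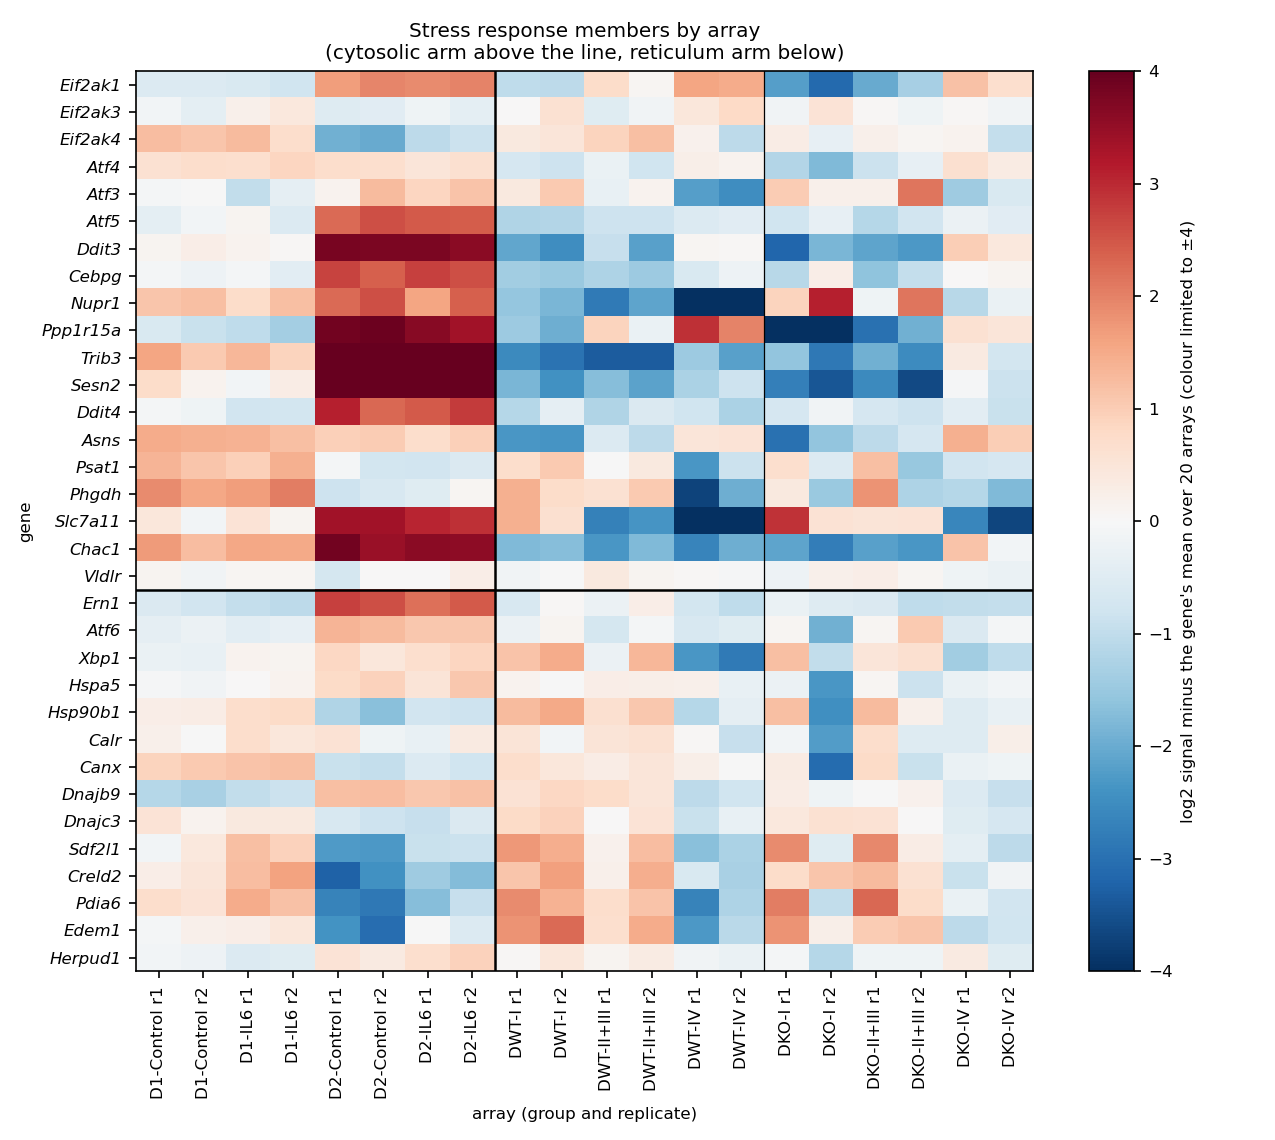
Log2 signal of the 33 measured members (rows, cytosolic arm above the horizontal line and reticulum arm below it) in the 20 arrays (columns, r1 and r2 for the replicates), each gene minus its own mean over the arrays, with the colour limited to ±4. The 4 D2 arrays are highest for the feedback genes Ppp1r15a, Trib3, Sesn2 and Ddit4, and DKO-I replicate 2 is lowest for Hspa5, Hsp90b1, Calr and Canx.

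From D1 to D2 in control cultures the cytosolic arm largely rose. In the reticulum arm the sensors rose, while the folding genes fell more often than they rose. Of the 33 measured members 28 passed at an adjusted p under 0.05 (limma, Benjamini-Hochberg over 19572 probe sets), 17 higher and 11 lower at D2. Over all probe sets 43.2% passed, 19.7% higher and 23.5% lower. The cytosolic arm had 11 higher and 4 lower of 19, with a median difference of 2.19, and the reticulum arm had 6 higher and 7 lower of 14, with a median of -0.49. The median over all probe sets was 0.17. Much of the array changed between these points. Of the 8176 probe sets above background in both arrays of at least 1 culture group, 73.4% passed, and 28 of the 32 members among them did. Atf5 and Ddit4 entered only through the D2 groups, where they were high, so their passing there is no separate support.

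All 4 genes grouped as feedback genes rose, and 3 of them (Sesn2, Ppp1r15a and Trib3) had the largest fitted differences of all members in this comparison. Sesn2, whose product restrains mTORC1, read 8.51 and 7.92 at D1 and 13.50 and 13.50 at D2, a difference of 5.28 (SE 0.32, adjusted p = 5.23e-07). Ppp1r15a read 11.02 and 10.72 at D1 and 15.48 and 15.53 at D2, a difference of 4.64 (SE 0.19, adjusted p = 4.61e-08). Trib3, a pseudokinase that binds ATF4 and AKT, went from 11.24 and 10.70 to 14.52 and 14.89, a difference of 3.74 (SE 0.24, adjusted p = 8.97e-07). For these genes the D1 and D2 arrays lay far apart, with no overlap. Ddit4, another restraint on mTORC1, was near background at D1 (6.84 and 6.76) and read 10.04 and 9.20 at D2, at least 2.01 higher (adjusted p = 5.24e-05).

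Among the 6 transcription factors of this arm 4 rose. Ddit3, which encodes CHOP, read 13.79 and 13.93 at D1 and 17.48 and 17.45 at D2, a difference of 3.60 (SE 0.10, adjusted p = 4.13e-09), and its other probe set gave 4.17. Cebpg, a dimer partner of ATF4, read 12.47 and 12.36 and then 15.26 and 14.96, a difference of 2.69 (SE 0.17, adjusted p = 7.39e-07). Both genes were higher in each D2 array than in any D1 array. Atf5 was near background at D1 (6.84 and 7.11) and read 9.49 and 9.80 at D2, at least 2.03 higher (adjusted p = 5.36e-05). Nupr1, a stress-induced chromatin protein, read 12.42 and 12.50 and then 13.59 and 13.89, a difference of 1.28 (SE 0.26, adjusted p = 0.00283). Atf4 itself did not pass: it read 16.70 and 16.80 at D1 and 16.78 and 16.76 at D2, a difference of 0.02. Atf3, an early stress factor, gave 0.75 and did not pass in control cultures, with 10.17 and 10.23 at D1 against 10.40 and 11.50 at D2.

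The eIF2 alpha kinases moved in different directions. Eif2ak1, the haem-regulated inhibitor and the main such kinase of red cell precursors, read 13.70 and 13.70 at D1 and 15.92 and 16.20 at D2, a difference of 2.36 (SE 0.12, adjusted p = 2.08e-07). Eif2ak4, the amino acid sensor GCN2, fell from 9.80 and 9.68 to background levels of 6.66 and 6.54, by at least 2.25 (adjusted p = 1.09e-05). Eif2ak3, the reticulum sensor PERK, was near background in 10 of the 20 arrays and passed in none of the comparisons. Each of the first pair kept its arrays apart between D1 and D2.

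Genes of amino acid and glutathione handling also split. Slc7a11, the cystine transporter, read 11.49 and 10.93 at D1 and 14.40 and 14.39 at D2, a difference of 3.19 (SE 0.22, adjusted p = 1.54e-06). Chac1, which breaks down glutathione, read 9.45 and 8.98 and then 11.60 and 11.21, a difference of 2.19 (SE 0.26, adjusted p = 7.6e-05). The biosynthetic enzymes went the other way. Phgdh, the entry enzyme of serine synthesis, read 10.09 and 9.76 at D1 and 7.37 and 7.57 at D2, a difference of -2.45 (SE 0.30, adjusted p = 9.09e-05), with 1 D2 array near background. Psat1, the next enzyme of that pathway, went from 10.28 and 10.02 to 8.84 and 8.19, a difference of -1.63 (SE 0.31, adjusted p = 0.00169). Asns, asparagine synthetase and a standard ATF4 target, fell by 0.49 (SE 0.11, adjusted p = 0.0039), from 16.21 and 16.14 to 15.66 and 15.71. So of the members with an ATF4-type element printed above, Slc7a11, Chac1 and Nupr1 were higher at D2 and Asns was lower; over all 7 members with the element, 4 rose, 1 fell and 2 did not pass. Vldlr, a lipoprotein receptor induced by ATF4, carries the element and was near background in every array.

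In the reticulum arm all 3 sensors and factors rose. Ern1, the sensor IRE1, read 8.99 and 8.79 at D1 and 12.30 and 12.16 at D2, a difference of 3.34 (SE 0.24, adjusted p = 1.93e-06). Atf6 read 13.99 and 14.11 and then 15.71 and 15.62, a difference of 1.61 (SE 0.11, adjusted p = 1.02e-06). Xbp1, the substrate of IRE1, read 14.13 and 14.10 and then 15.22 and 14.87, a difference of 0.93 (SE 0.13, adjusted p = 0.000266). In each of these genes both D2 arrays exceeded both D1 arrays.

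The chaperones fell more often than they rose, with 5 of 8 lower and 2 higher. Canx, calnexin, read 13.93 and 14.06 at D1 and 12.14 and 12.06 at D2, a difference of -1.90 (SE 0.16, adjusted p = 5.44e-06). Hsp90b1, the reticulum HSP90, went from 14.45 and 14.48 to 12.97 and 12.51, a difference of -1.72 (SE 0.16, adjusted p = 1.25e-05). Sdf2l1, a cofactor of BiP, went from 10.43 and 10.97 to 8.28 and 8.26, a difference of -2.43 (SE 0.27, adjusted p = 4.15e-05). All D2 arrays lay below all D1 arrays for these genes, and the same held for Creld2, a folding protein of the reticulum, at -3.20 (SE 0.32, adjusted p = 1.74e-05). Creld2 read 10.76 and 10.97 and then 7.27 and 8.07, with 1 D2 array near background. Dnajc3, a BiP co-chaperone, fell by 1.07 (SE 0.26, adjusted p = 0.00729), from 11.05 and 10.64 to 9.87 and 9.69.

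The chaperones that rose were Dnajb9, a BiP co-chaperone and IRE1 repressor, and Hspa5, which encodes BiP itself. Dnajb9 read 13.07 and 12.90 at D1 and 15.39 and 15.43 at D2, a difference of 2.42 (SE 0.13, adjusted p = 2.03e-07). Hspa5 read 13.70 and 13.60 and then 14.51 and 14.68, a difference of 0.94 (SE 0.18, adjusted p = 0.00156). Calreticulin (Calr), at 13.47 and 13.26 against 13.83 and 13.08, overlapped between the points and did not pass. Pdia6, a disulfide isomerase, fell from 9.53 and 9.38 to background levels of 6.14 and 5.96, by at least 1.97 (adjusted p = 1.21e-05). In the degradation machinery Edem1, which hands misfolded glycoproteins to destruction, went from 10.65 and 10.92 to 8.32 and 7.66, a difference of -2.80 (SE 0.31, adjusted p = 3.94e-05). Herpud1, a scaffold of the degradation complex, rose by 0.60 (SE 0.15, adjusted p = 0.00975), from 13.27 and 13.19 to 13.91 and 13.73. Of the 7 members with the reticulum stress element in the searched window 5 fell, 1 rose (Hspa5) and 1 did not pass (Calr).

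With IL-6 in the medium the same step gave 18 members higher and 10 lower, 28 of 33, where 33.2% of all probe sets passed, 13% higher and 20.2% lower. The cytosolic median was 2.06, with 12 higher and 4 lower, the reticulum median was -0.60, with 6 in each direction, and the median over all probe sets was 0.09. The control and IL-6 cultures share no array in these comparisons, but both steps come from 1 fit with a shared estimate of the spread. The same 27 members passed in both with the same sign, which was 96.4% of either list. With 28 of 33 members passing in each step, most must be shared. The overlap over all probe sets is not given here, so no result about the members is read from it. Edem1 passed in control cultures alone and Atf3 in IL-6 cultures alone. Atf3 read 9.27 and 9.88 at D1 and 11.10 and 11.38 at D2 with IL-6, a difference of 1.66 (SE 0.36, adjusted p = 0.00461), but the difference between the 2 steps was not past the threshold for this gene. With IL-6 Sesn2 gave 5.35 (SE 0.32), Ppp1r15a 4.70 (SE 0.19), Trib3 3.90 (SE 0.24), Ddit3 3.60 (SE 0.10) and Ern1 3.33 (SE 0.24). Ddit4 and Atf5 were again near background at D1 and rose by at least 1.93 and at least 2.05. With all 20 arrays in 1 fit 20 members passed in each step: the calls of Nupr1, Asns, Psat1, Xbp1, Hspa5, Hsp90b1 and Canx ended in both, that of Herpud1 in control cultures and that of Phgdh in IL-6 cultures. Asns also did not pass without the intensity trend in either step, Dnajc3 with quantile normalization in either, and Psat1 with quantile normalization and Herpud1 with median centring in control cultures.

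**Figure D3:**
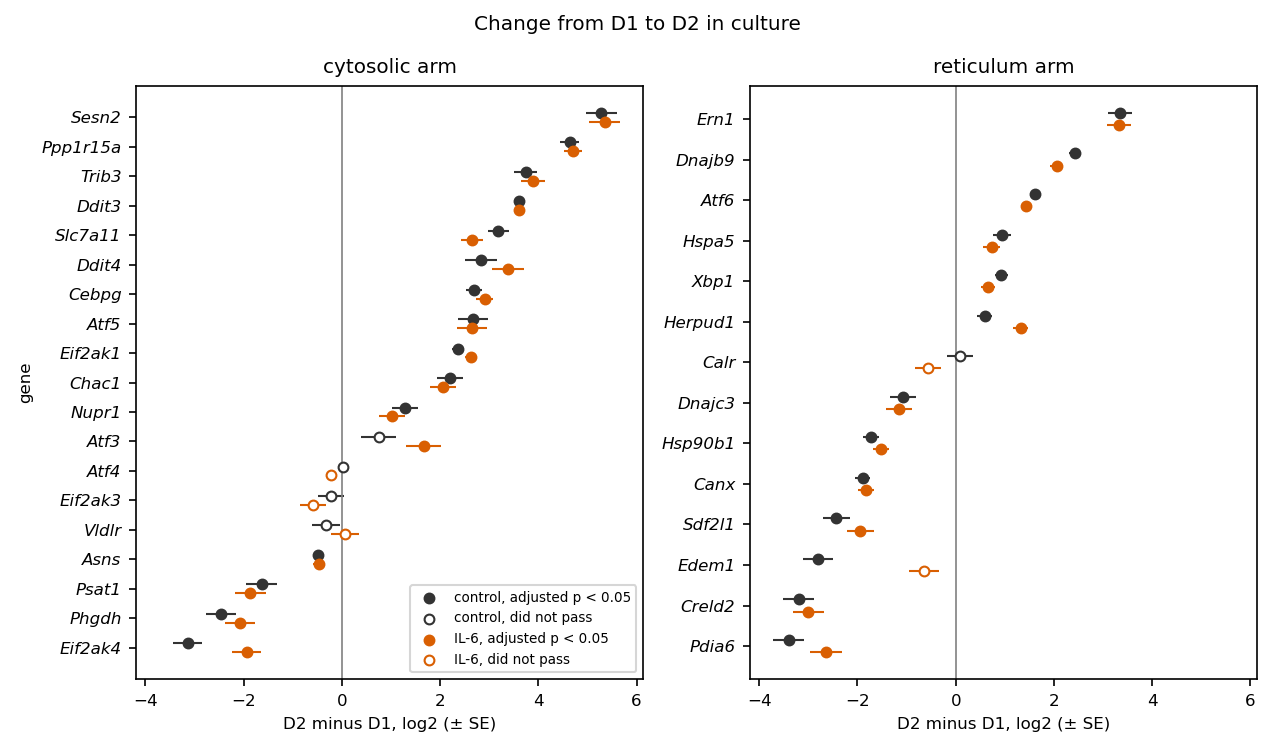
Difference D2 minus D1 in log2 units (horizontal axis, with the SE from the fit as bars) for each cytosolic member (left) and reticulum member (right), in control cultures (dark) and IL-6 cultures (orange). Filled points passed an adjusted p of 0.05 and open points did not; Sesn2 stands highest at 5.28 and 5.35, and Edem1 separates the treatments, at -2.80 without and -0.64 with IL-6.

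Other genes of the pathways, listed by role, fell more often than they rose. Of 53 measured related cytosolic genes 13 were higher and 23 lower at D2 in control cultures. Hmox1, haem oxygenase, rose by 4.93 (SE 0.22, adjusted p = 8.45e-08) and Gadd45a, a stress-induced growth arrest gene, by 4.65 (SE 0.15, adjusted p = 1.26e-08). The exchange factor subunits Eif2b1, at -3.45, and Eif2b3, at -3.23, fell, and 8 of 11 aminoacyl-tRNA synthetases were lower with 2 higher. Of 56 measured related reticulum genes 7 were higher and 33 lower, with a median of -1.07. Derl1, a degradation channel component, rose by 2.50 (SE 0.12, adjusted p = 1.19e-07) and Creb3 by 1.87 (SE 0.27, adjusted p = 0.000236). P4hb, the classical disulfide isomerase, gave -3.26 (SE 0.14, adjusted p = 6.04e-08) and Edem2, a mannosidase-like degradation factor, gave -3.16 (SE 0.46, adjusted p = 0.000278). None of 7 other chaperones rose and 6 fell, and of 12 genes for disulfide and proline handling 9 fell and 0 rose. In IL-6 cultures the counts were 12 higher and 22 lower of the cytosolic genes and 6 higher and 30 lower of the reticulum genes.

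Markers of other cells were lower over the same step in control cultures. The neutrophil list went from 8.68 to 9.47 in D1-Control to 6.81 to 6.87 in D2-Control, with 5 of 12 and then 8 or 9 of 12 near background. The list of 12 measured monocyte and macrophage markers of 13 went from 9.12 to 9.48 to 7.08 to 7.14. The 8 plasma cell markers went from 7.78 to 7.79 to 6.38 to 6.90. Of these 8, 4 or 5 were near background in a D1-Control array and 7 in each D2-Control array. In IL-6 cultures the monocyte list stood at 9.55 to 9.82 in D1-IL6 and 10.05 to 10.24 in D2-IL6. The part of these cells in the changes of the reticulum genes was not tested.

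IL-6 itself was set against control medium at each point. At D1, where 0.0511% of all probe sets passed, 0 members did, and 7 had an unadjusted p under 0.05. The reticulum arm had a median of 0.29, with 11 of 14 higher in IL-6 and all 8 chaperones among them, the cytosolic arm had -0.12, and the median over all probe sets was 0.0035. The largest of these differences were Creld2, at 10.76 and 10.97 in control against 11.74 and 12.09 with IL-6 (1.05, SE 0.32, adjusted p = 1.0), and Sdf2l1, at 10.43 and 10.97 against 11.76 and 11.47 (0.91, SE 0.27, adjusted p = 1.0).

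At D2 3 reticulum members and 0 cytosolic members were higher with IL-6, with 3.31% of all probe sets passing and 2.92% higher. Edem1 read 8.32 and 7.66 in D2-Control and 10.71 and 10.16 in D2-IL6, a difference of 2.45 (SE 0.31, adjusted p = 0.000935). Sdf2l1 read 8.28 and 8.26 against 9.67 and 9.67, a difference of 1.40 (SE 0.27, adjusted p = 0.0166). Pdia6 read 6.14 and 5.96 against 7.11 and 7.88, a difference of 1.44 (SE 0.32, adjusted p = 0.0343), and of its 4 arrays only D2-IL6 replicate 2 lay above background. In all 3 genes the IL-6 arrays stayed below the D1 level with IL-6, so the D2 value lay between D2-Control and D1-IL6. Creld2 (1.25, adjusted p = 0.0671) and Hsp90b1 (0.64, adjusted p = 0.065) did not pass, although both IL-6 arrays exceeded both control arrays, and they did pass with dim probe sets filtered out. With all 20 arrays in 1 fit the calls of Sdf2l1 and Pdia6 ended. Leaving out 1 array brought the count to 2 (without D2-Control replicate 1, D2-Control replicate 2 or D2-IL6 replicate 1) or 1 (without D2-IL6 replicate 2), and Edem1 passed in each of these. Among related reticulum genes 3 of 56 rose, led by P4hb at 2.00 (SE 0.14, adjusted p = 1.45e-05) and Fkbp2, a prolyl isomerase, at 1.15 (SE 0.21, adjusted p = 0.0123), and 0 of 53 related cytosolic genes passed.

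The effect of IL-6 at D2 exceeded its effect at D1 for 1 member, Edem1, by 2.16 (SE 0.44, adjusted p = 0.045), where 1.19% of all probe sets passed and 1.17% were larger at D2. The call for Edem1 ended under quantile normalization, without the intensity trend, with all 20 arrays in 1 fit and without any of 6 of the 8 arrays. Beside these genes the monocyte and macrophage list stood at 7.08 to 7.14 in D2-Control and 10.05 to 10.24 in D2-IL6. Its genes did not all move the same way. Csf1r read 7.4 and 7.1 against 13.0 and 12.7, while Cx3cr1 read 8.24 and 8.26 against 7.02 and 6.95. The neutrophil list stood at 6.81 to 6.87 against 8.91 to 9.1. The plasma cell list was 6.38 to 6.90 against 6.78 to 6.83, with 6 or 7 of its 8 genes near background in each array. The part of monocytic cells in the IL-6 differences was not tested.

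**Figure D4:**
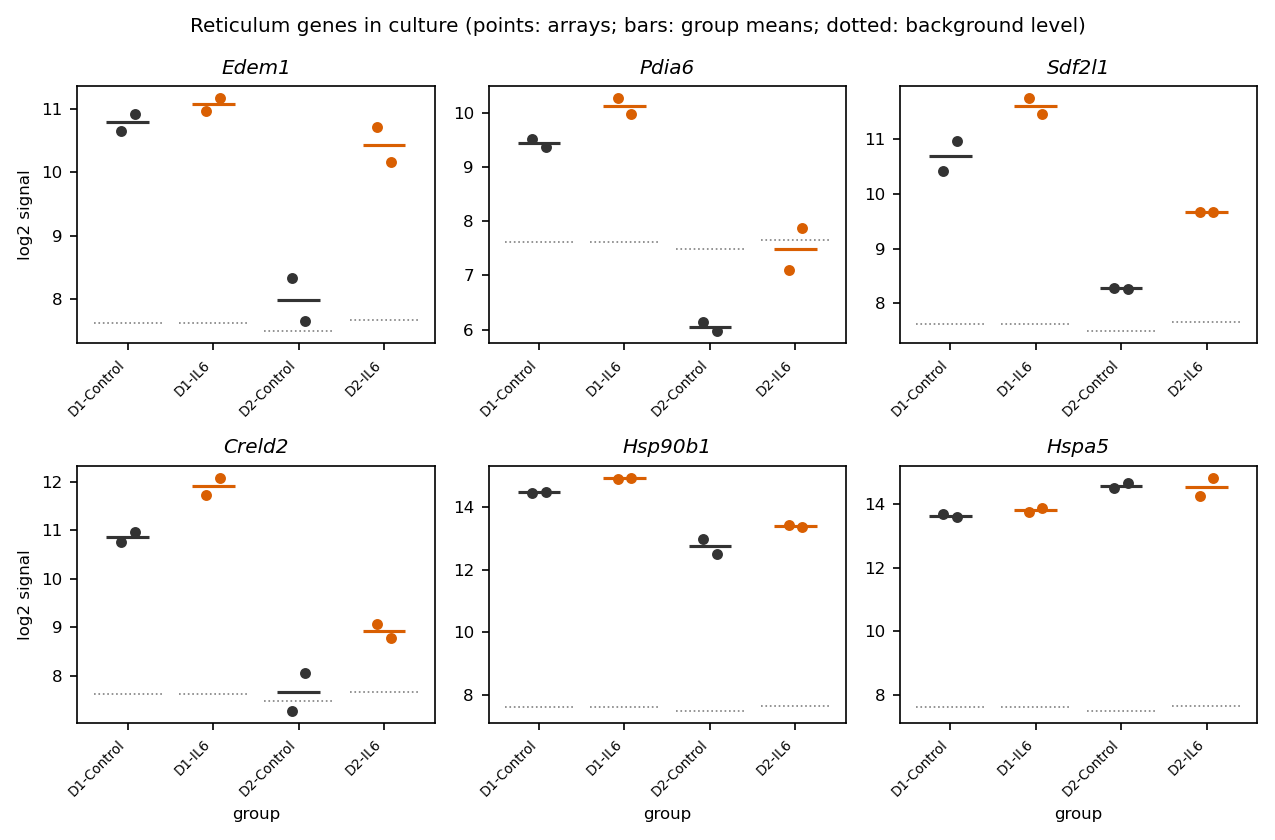
Log2 signal of 6 reticulum genes (vertical axis, own scale in each panel) in the 4 culture groups (horizontal axis), with a point for each array, a bar for the group mean and a dotted line for the mean background level. Edem1 reads 8.32 and 7.66 in D2-Control and 10.71 and 10.16 in D2-IL6, whereas Hspa5 overlaps between the treatments at D2.

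In vivo, the DWT steps showed the reticulum arm low at the last stage. From stage I to stage II+III 0 members passed, where 0.245% of all probe sets did, and 4 had an unadjusted p under 0.05: Slc7a11 (-3.58, adjusted p = 0.0761), Eif2ak1 (1.44), Asns (1.55) and Ppp1r15a (2.00). From stage II+III to IV 3 members fell, where 5.16% of all probe sets passed and 3.57% fell, and 19 members had an unadjusted p under 0.05. All 14 reticulum members were lower at stage IV, with a median of -1.26, while the cytosolic median was 0.32 and that over all probe sets 0.12.

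Xbp1 read 14.18 and 15.74 in DWT-II+III and 12.08 and 11.59 in DWT-IV, a difference of -3.13 (SE 0.67, adjusted p = 0.0284). Edem1 read 11.39 and 12.20 and then 8.44 and 9.63, a difference of -2.76 (SE 0.59, adjusted p = 0.029). Dnajb9 read 14.93 and 14.68 and then 13.14 and 13.42, a difference of -1.52 (SE 0.33, adjusted p = 0.0304). Both stage IV arrays lay below both earlier arrays in each gene. These calls rest on all the arrays: Xbp1 was the single member passing without DWT-II+III replicate 1 and Edem1 without DWT-IV replicate 2, and 0 passed without DWT-IV replicate 1 or DWT-II+III replicate 2. Dnajb9 did not pass with the mouse as a block. Among the cytosolic members 0 passed, and the smallest adjusted p-values were those of Phgdh, near background at stage IV, with a bound of -1.72 (adjusted p = 0.0509), Ppp1r15a at 2.15 (adjusted p = 0.0651) and Atf3 at -2.27 (adjusted p = 0.0661). Of 56 related reticulum genes 5 fell, among them Fkbp11, a prolyl isomerase of secretory cells, by at least 0.41 (adjusted p = 0.0446), and Serp1, a translocon-associated protein, at -2.49 (SE 0.49, adjusted p = 0.0212).

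Secretory and granulocytic markers were lower after the same DWT step. The plasma cell list went from 8.12 to 9.41 in DWT-II+III to 6.77 to 6.97 in DWT-IV. Of its 8 genes 1 or 5 were near background in a DWT-II+III array and 6 or 7 in a DWT-IV array. The monocyte list went from 11.24 to 11.47 to 9.21 to 9.26, beside the neutrophil values given above. Their part in the fall of Xbp1, Edem1 and Dnajb9 was not tested.

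In DKO erythroblasts cytosolic stress genes rose over the last step. From stage II+III to IV 8 members passed, 7 higher and 1 lower, all of the cytosolic arm, where 7.77% of all probe sets passed, 4.11% higher and 3.66% lower. The cytosolic median was 0.62, the reticulum median -0.87 and that over all probe sets 0.06. From stage I to II+III 0 members passed, with 0.327% of all probe sets passing and 5 members at an unadjusted p under 0.05. That step uses the DKO-I arrays, and its differences depended on which of them was kept. Over all settings, single arrays left out among them, Asns ran from 0.73 to 2.13 and Atf6 from 0.47 to 2.46.

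Ppp1r15a read 8.64 and 9.69 in DKO-II+III and 12.22 and 12.10 in DKO-IV, a difference of 2.99 (SE 0.59, adjusted p = 0.0146). Ddit3 read 11.57 and 11.38 and then 14.66 and 14.09, a difference of 2.90 (SE 0.54, adjusted p = 0.0115), and its other probe set gave 2.69. Eif2ak1 read 12.25 and 12.92 and then 15.42 and 14.92, a difference of 2.59 (SE 0.43, adjusted p = 0.00742). Both stage IV arrays lay above both stage II+III arrays in these genes, as they did in Asns, at 13.67 and 14.02 and then 16.14 and 15.68 (2.06, SE 0.45, adjusted p = 0.0222). Chac1 was near background at stage II+III (5.57 and 5.41) and read 8.88 and 7.63 at stage IV, at least 0.72 higher (adjusted p = 0.00592). Its value in DKO-IV replicate 2 lay barely above the background of that array, 7.62. Trib3 read 7.73 and 7.14 and then 10.02 and 8.90, a difference of 2.03 (SE 0.51, adjusted p = 0.0386). Sesn2 gave 2.63 (SE 0.43, adjusted p = 0.00726), but only DKO-IV replicate 1, at 7.74, was above background, against 5.25 and 4.17 at stage II+III and 6.94 in the other stage IV array.

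Slc7a11 was the member that fell, from 11.55 and 11.58 to 8.42 and 7.36, a difference of -3.68 (SE 0.68, adjusted p = 0.0106), with DKO-IV replicate 2 near background. Its direction was opposite to that in culture, where it rose together with Ppp1r15a, Ddit3 and Chac1. Without single arrays the count of 8 dropped to 4 (without DKO-II+III replicate 1 or 2) or 2 (without DKO-IV replicate 1 or 2), and Chac1 passed in each of these fits. Trib3 did not pass with the mouse of the DWT arrays as a block, nor Asns with quantile normalization. In the reticulum arm 0 of 14 passed and 6 had an unadjusted p under 0.05, among them Edem1 at -1.99 (adjusted p = 0.0693) and Xbp1 at -1.77 (adjusted p = 0.141).

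Among related genes of amino acid supply 4 of 17 rose and 0 fell. Of 53 related cytosolic genes 6 were higher and 1 lower at DKO stage IV, among them the glycine transporter Slc6a9 at 3.52 (SE 0.49, adjusted p = 0.00502) and the large neutral amino acid transporter Slc7a5 at 3.46 (SE 0.67, adjusted p = 0.0132). Cebpd, a C/EBP factor, fell by at least 0.46 (adjusted p = 0.0113). Slc6a9 also rose from stage I to II+III in DKO, by 3.30 (SE 0.49, adjusted p = 0.0225). Of the related reticulum genes 2 fell, P4hb at -1.81 (SE 0.35, adjusted p = 0.0139) and Fkbp11 at -3.59 (SE 0.64, adjusted p = 0.00965, with 3 of the 4 arrays near background). Erythroid markers went over the same step from 12.3 to 13.09 in DKO-II+III to 15.53 in both DKO-IV arrays, and neutrophil markers from 16.24 to 16.37 to 12.17 to 13.37. Their part in these changes was not tested.

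The DWT and DKO steps to stage IV share no array, and the 3 members that passed in DWT and the 8 that passed in DKO had 0 in common. That does not show a difference between the genotypes. Over all probe sets 5.16% passed in DWT and 7.77% in DKO, and their overlap is not given here. Ppp1r15a gave 2.15 in DWT and 2.99 in DKO, Ddit3 1.61 and 2.90, and Eif2ak1 1.13 and 2.59, while Xbp1 gave -3.13 and -1.77. The difference of the steps, tested in the same fit, passed for 0 members and for 0% of all probe sets, with 3 members at an unadjusted p under 0.05: Eif2ak1 (1.45, SE 0.60, adjusted p = 1) and Chac1 and Sesn2, whose arrays were mostly near background in these groups. At the earlier step the test of the difference also passed for 0 members and 0% of all probe sets, with 1 member, Slc7a11 (2.39, SE 0.96, adjusted p = 0.799), at an unadjusted p under 0.05. Over all probe sets 662 and 942 had an unadjusted p under 0.05 in these tests.

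**Figure D5:**
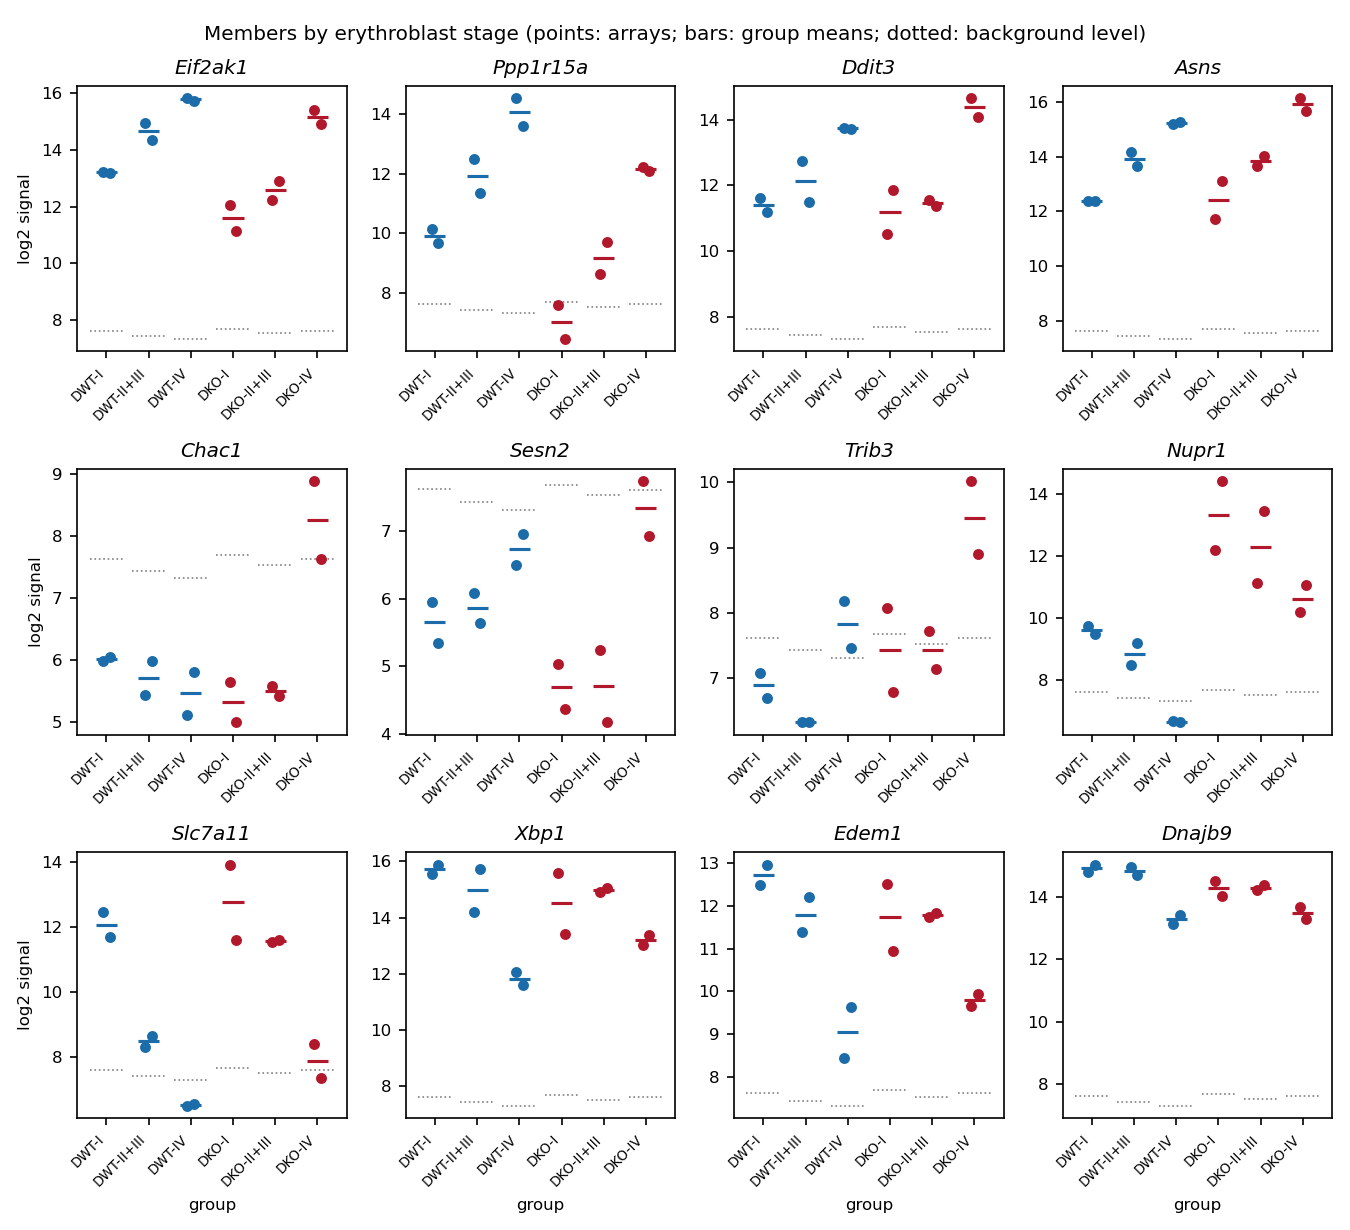
Log2 signal of 12 members (vertical axis, own scale in each panel) at stages I, II+III and IV in DWT (blue) and DKO (red), with a point for each array, a bar for the group mean and a dotted line for the mean background level. Ppp1r15a reads 9.67 to 10.16 in DWT-I against 6.45 to 7.58 in DKO-I, and Chac1 stands above background in the DKO-IV arrays alone, barely so in replicate 2.

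Between the genotypes 0 members passed at any stage, where 0.445% (stage I), 0.618% (stage II+III) and 0.046% (stage IV) of all probe sets did. At unadjusted p under 0.05 there were 6, 5 and 4 members. Nupr1 and Ppp1r15a were among the largest differences at each stage. Nupr1 read 9.75 and 9.47 in DWT-I against 12.20 and 14.40 in DKO-I, 8.49 and 9.19 against 11.12 and 13.44 at stage II+III, and 6.66 and 6.63 (near background) against 10.18 and 11.05 at stage IV. Every DKO array exceeded the DWT arrays of its stage, and the differences of 3.69 (SE 0.82, adjusted p = 0.101), 3.44 (adjusted p = 0.114) and at least 3.30 (adjusted p = 0.171) did not pass.

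Ppp1r15a went the other way. It read 10.16 and 9.67 in DWT-I against background levels of 7.58 and 6.45 in DKO-I (at least 2.23 lower, adjusted p = 0.0776), 12.49 and 11.34 against 8.64 and 9.69 at stage II+III (-2.75, adjusted p = 0.0848), and 14.53 and 13.59 against 12.22 and 12.10 at stage IV (-1.90, adjusted p = 0.414). Eif2ak1 was also lower in every DKO array of a stage, with differences of -1.63 (adjusted p = 0.17), -2.07 (adjusted p = 0.0672) and -0.62. At stage II+III Slc7a11 read 8.31 and 8.66 in DWT and 11.55 and 11.58 in DKO (3.08, SE 0.68, adjusted p = 0.0889). At stage IV Chac1 was near background in DWT (5.10 and 5.81) and read 8.88 and 7.63 in DKO (at least 0.93 higher, adjusted p = 0.0632). The lower of these DKO values lay barely above background. Trib3 gave 1.63 at stage IV (adjusted p = 0.415). None of these passed, and with all 20 arrays in 1 fit 3, 4 and 2 members did at stages I, II+III and IV. That fit also gave more members in the stage steps. Its share over all probe sets is not given here, so no result about the members is read from it.

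At stage I all 14 reticulum members were lower in DKO, with a median of -0.95 against 0.15 over all probe sets, but the DKO arrays disagreed. Hsp90b1 read 15.37 in DKO-I replicate 1, beside 15.44 and 15.70 in DWT-I, and 11.73 in replicate 2. Canx read 13.36 and 9.96 against 13.74 and 13.50, and Hspa5 13.51 and 11.42 against 13.90 and 13.72. The array that stands apart holds the low values in each. Without DKO-I replicate 1, which leaves that array alone, 17 members passed and so did 31% of all probe sets, and without replicate 2 0 members did. With DKO-I replicate 1 alone against the DWT-I mean, 10 of 14 reticulum members were lower and 4 higher, with a median of -0.24, and Nupr1 gave 2.59 and Eif2ak1 -1.17. At stage IV 26 of 33 members were higher in DKO, with a median of 0.35 against -0.02 over all probe sets. In the related cytosolic genes 1 of 53 passed between the genotypes, Slc6a9 at stage I (-3.76, SE 0.49, adjusted p = 0.00982), beside erythroid markers of 12.92 to 13.08 in DWT-I and 9.42 to 9.91 in DKO-I. The eosinophil list read 13.15 to 13.34 against 6.82 to 10.53 in the same arrays. The part of the cell mixture was not tested.

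Of the 33 measured members 29 passed in at least 1 comparison. Atf4, the hub of the cytosolic arm, lay between 14.32 and 16.94, with a median of 16.37 over the 20 arrays. Calr lay between 11.03 and 13.97, Eif2ak3 between 7.11 and 8.45 and Vldlr between 5.53 and 6.60, and these 4 passed in none. In IL-6 cultures Atf4 did pass as lower at D2 with quantile normalization, median centring or dim probe sets filtered out. Its difference there ran from -0.33 to -0.13 over all settings. Lowest values of Atf4 and Calr were both in DKO-I replicate 2. Culture and in vivo arrays were not tested against each other, and the submitters' notes do not say whether they were normalized together. As a description, the highest array of Ddit3 (17.48), Trib3 (14.89), Sesn2 (13.60), Ppp1r15a (15.53), Chac1 (11.60) and Ern1 (12.30) was a D2 culture array. That of Xbp1 (15.88), Hsp90b1 (15.70), Creld2 (12.14) and Edem1 (12.97) was DWT-I replicate 2. The arms did not divide this way. Atf6, Hspa5, Dnajb9 and Herpud1 were also highest in a D2 culture array, and Sdf2l1, Pdia6 and Calr in DKO-II+III replicate 1. Of the cytosolic arm, Atf4 and Asns were highest in D1 arrays and Nupr1 in DKO-I replicate 2.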

How the data were processed

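The authors deposited log2 signals. Per the submitters' processing notes they used RMA and Affymetrix Expression Console; versions are not given in the sources used here. Of 28846 probe sets, 19572 carried exactly 1 gene symbol and were tested, and a gene with several is represented by the one with the highest mean. Differences were tested by limma 3.58.1 (R 4.3.3; lmFit and eBayes, intensity trend on), in 1 fit of the 8 cultured arrays (4 residual and 6.41 prior degrees of freedom) and 1 of the 12 in vivo arrays (6 and 4.52), each group having 2 arrays. 2-sided p-values were adjusted by Benjamini-Hochberg over all 19572, and an adjusted p under 0.05 passed. They measure the spread between arrays, whose number limits the precision. SE is the standard error of a difference from the fit. A value was near background under the 95th percentile of 23 background probe sets of its array (7.25 to 7.74), and "at least" gives a bound against that level where both arrays of 1 group alone lay under it. The fit was tested on simulated data. Replicate numbers follow accession order and pair no samples, except that DWT arrays of 1 sex come from 1 mouse.

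The members, the related genes, the markers and the motifs were chosen with earlier results of these data known. The rule named all members, with array values for those passing, and up to 2 related genes per direction. Alternatives were quantile normalization, median centring, no trend, all 20 arrays in 1 fit, a filter on dim probe sets, the mouse of the DWT arrays as a block, and leaving out each array.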

Additional observations from a re-analysis of the deposited data

Results flagged for a closer look

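One result met the preset criteria for a closer look. The effect of IL-6 on Edem1 at D2 exceeded its effect at D1 by 2.16 (SE 0.44, adjusted p = 0.045), by a test of the difference itself. At D1 the gene read 10.65 and 10.92 in control and 10.97 and 11.18 with IL-6, and at D2 8.32 and 7.66 against 10.71 and 10.16. The difference lies almost wholly in the D2-Control arrays, which are the lowest of the 20 for this gene.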

How the results depend on the processing

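All members called kept their direction under the alternatives that could be computed: of 656 values 574 stayed past the threshold, 82 did not and 0 turned sign. For D2 against D1, in control and IL-6 cultures, median centring gave 27 and 29 members, no intensity trend 27 and 27, quantile normalization 27 and 28, the filter on dim probe sets 28 and 29, and one fit of all 20 arrays 20 and 20. Without the trend the IL-6 interaction gave 0. Quantile normalization gave 1 member for DKO against DWT at stage II+III, 0 for the IL-6 interaction, 4 for IL-6 at D2 (with Eif2ak4) and 7 for DKO stage IV against II+III. The fit of all 20 arrays gave 1 member for IL-6 at D2, 0 for the IL-6 interaction, 3, 4 and 2 for DKO against DWT at stages I, II+III and IV, 3 for DWT stage II+III against I, 1 for DKO stage II+III against I, and 15 each for stage IV against II+III in DWT and in DKO. The filter on dim probe sets gave 5 of 32 members for IL-6 at D2, where 8.57% of the probe sets kept passed. For DKO against DWT it gave 1 and 2 of 29 at stages I and II+III (1.66% and 2.19% of those kept). For stage IV against II+III it gave 7 of 29 in DWT (16.8% of those kept). In DKO it gave 10 of 29 (23.4% of those kept), Edem1 among them. For D2 against D1 the shares of those kept were 73.4% in control and 66.5% in IL-6 cultures. The filter keeps probe sets above background in both arrays of at least 1 group of the fit. It keeps 8176 probe sets with 32 members in culture and 8786 with 29 in vivo, where Atf5, Sesn2, Ddit4 and Vldlr drop out. A gene can enter through the group where it is high, so passing after the filter is no separate support. Shares over all probe sets are not given here for the other settings in this paragraph, so their counts are not read as results about the members. The cause of these shifts was not tested.

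With the mouse of the DWT arrays as a replicate block, DWT stage IV against II+III gave 2 members and DKO stage IV against II+III gave 7, and all other in vivo counts stayed at 0. The block changed no other call.

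Leaving out 1 array at a time gave 0 to 0 members for IL-6 at D1, 1 to 2 at D2, 27 to 28 for D2 against D1 in control and 25 to 29 in IL-6 cultures, and 0 to 1 for the IL-6 interaction. In vivo it gave 0 to 17 for DKO against DWT at stage I, 0 to 1 at stage II+III and 0 to 0 at stage IV, 0 to 0 for DWT stage II+III against I, 0 to 1 for DWT stage IV against II+III, 0 to 10 for DKO stage II+III against I, 2 to 4 for DKO stage IV against II+III, and 0 to 6 and 0 to 0 for the genotype interactions at the earlier and later step. The highest counts in the comparisons that use DKO-I came without its replicate 1, where calls rose over all probe sets as well. In the other comparisons, too, the share of all probe sets passing moved with the array left out. None of these counts is read as a result about the members. The members behind a count also differed between fits, as for IL-6 at D2. In each such fit the lone array of a group is assumed to vary like the others.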
